A study of Rattus norvegicus with 23 samples.

Results

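The genes described here are 54 genes of mitosis, a list of symbols drawn up by what the genes do in cell division. Of the 54, 53 had a probe on the array under their current symbol, and 52 had a signal that passed the filter on dim probes, out of 23030 genes tested in all. Ncaph had no probe under that name. Hmmr, which organises the poles of the spindle, had 1 probe that was detected above background in 1 of 6 controls and 0 of 5 exposed animals on D0, and likewise in 1 of 6 and 0 of 6 on D28, and was not tested.

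The lungs came from elderly male F344 rats, an inbred albino laboratory strain with no engineered allele, that were 19 months old. Exposed rats breathed a TiO2 nanostructured aerosol through the nose at 10 mg/m3 over 4 weeks, with sessions of 6 h on 5 days of each week, and control rats breathed filtered air. Necropsy took place at the end of the exposure (D0) or 28 days later (D28). Total RNA of the accessory lobe, a whole piece of lung with all its cell types, was put on single-colour Agilent arrays with 1 rat per array. There were 11 arrays for D0 (6 control, 5 exposed) and 12 for D28 (6 of each).

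Mitosis is the stage in which the duplicated chromosomes condense, attach to a spindle of microtubules and are pulled apart before the cell divides. It is started by the kinase Cdk1 with its cyclins, held back by a checkpoint until every chromosome is attached, and ended when the anaphase-promoting complex marks cyclins and the protein that guards sister cohesion for destruction. Most of its genes are silent in resting cells and are transcribed together late in the cycle, so that their mRNA in a slowly renewing tissue such as the lung is carried by the few cells that are dividing.

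The 23 arrays lay on 5 slides. Slides 1, 3 and 5 held all 4 groups, and slide 4 held all but the D28 controls. The array of D28 control 4 was alone on slide 2 and had the highest 75th percentile of the signal, 3470. Its file header gave a later version of the image extraction software, in the field for grid placement. Each array had 69.5 to 77.9% of its spots well above background. All values below are log2 normalized signals, and the number of arrays limits their precision. The lung label fitted the markers: 9 of 9 type II pneumocyte genes, 9 of 9 endothelial genes and 7 of 7 ciliated and secretory airway genes were well above background on all 23 arrays. A gene is called over-expressed or under-expressed where the limma test, with 1 model for all 4 groups, gave p below 0.05 after Benjamini-Hochberg adjustment together with a change of at least 1.5-fold (FC) up or down. In bulk tissue, more dividing cells and more mRNA per dividing cell cannot be told apart.

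On D0, 32 of the 52 mitosis genes (61.5%) were over-expressed in exposed rats and 0 were under-expressed. Over all genes tested, 1.09% were over-expressed and 0.695% under-expressed. Without the FC limit, 34 mitosis genes passed the adjusted p with a higher signal (1.52% of all genes) and 0 with a lower one (1.35%). An unadjusted limma p below 0.05 was reached by 45 with a higher signal (5.6% of all genes) and by 1, Kif4a, with a lower one (6.34%). The log2 FC was above 0 for 51 of the 52 (49.9% of all genes), and its median over the 52 was 0.99, against a median close to 0 over all genes. For 29 of the 52, every exposed rat had a higher signal than every control, which was so for 1.94% of all genes, and for 0 every exposed rat was lower (2.37%). In each of the 5 exposed rats, 34 to 45 of the 52 genes were above all D0 controls, as were 13.1 to 22.4% of all genes.

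The changes were smaller under other choices of signal and background correction. In the table of all arrays that the authors deposited, which follows the median spot signal with no background subtracted, the median log2 FC on D0 was 0.56 and 25 of the 52 were over-expressed, 24 of them among the 32. The D0 change was smaller in this table for all 52 genes and had the same sign for all 52. With normexp background correction and an offset of 50, the median was 0.45 and 18 genes were over-expressed. The share of all genes over-expressed under these choices was not counted.

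**Figure D1:**
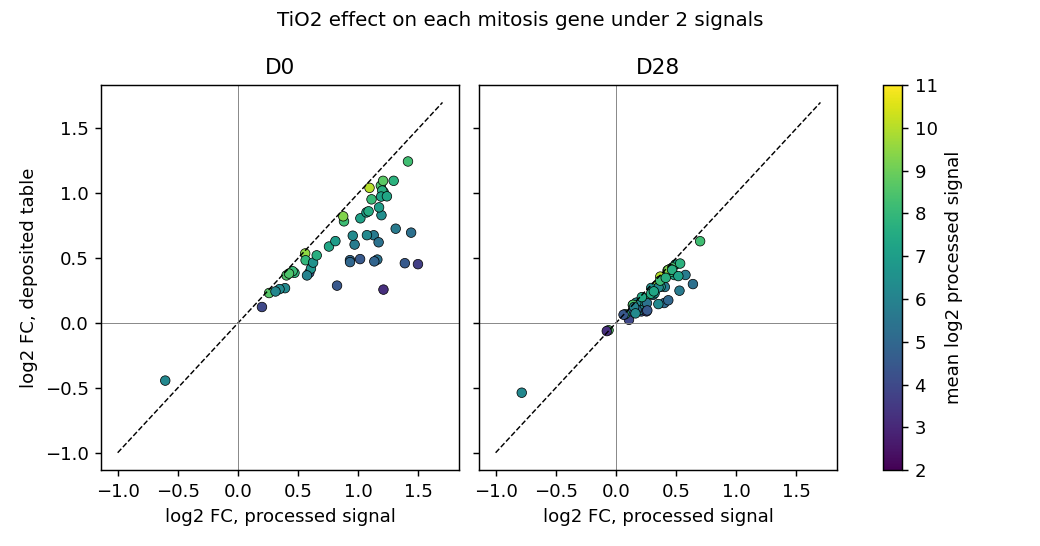
Log2 FC of each of the 52 mitosis genes from the processed signal (horizontal axis) and from the deposited table (vertical axis), on D0 (left) and D28 (right); 1 point is 1 gene, coloured by its mean log2 processed signal, and the dashed line marks equal values. On D0 all 52 points lie closer to 0 on the vertical than on the horizontal axis, and their median is 0.56 in the table against 0.99.

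Mki67, Top2a and Cdk1 are the usual marks of dividing cells, and their signals were well above background in every rat. Mki67 encodes the protein behind the Ki-67 stain of cycling cells, which coats mitotic chromosomes. Its signal was 8.48, 8.73, 8.86, 8.69 and 8.51 in the 5 exposed rats on D0, against a lowest of 7.24, a median of 7.50 and a highest of 8.01 in the 6 controls. The groups did not overlap, and the log2 FC was 1.11 with a standard error of 0.14 (limma adjusted p = 0.000123). Its 4 probes had log2 FC of 0.94 to 1.37.

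Top2a, the topoisomerase that untangles sister chromatids, had signals of 7.79, 7.93, 7.85, 8.09 and 7.81 in exposed rats on D0. Controls had a lowest of 6.05, a median of 6.60 and a highest of 7.68, so that the controls were spread out and the exposed rats lay close together above them. The log2 FC was 1.19 with a standard error of 0.24 (limma adjusted p = 0.00731). Cdk1, the kinase that starts mitosis, had 10.53, 10.78, 10.73, 10.61 and 10.46 in exposed rats, and a lowest of 8.97, a median of 9.40 and a highest of 10.10 in controls. Here too the groups did not overlap, with a log2 FC of 1.09, a standard error of 0.17 and a limma adjusted p of 0.000932.

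**Figure D2:**
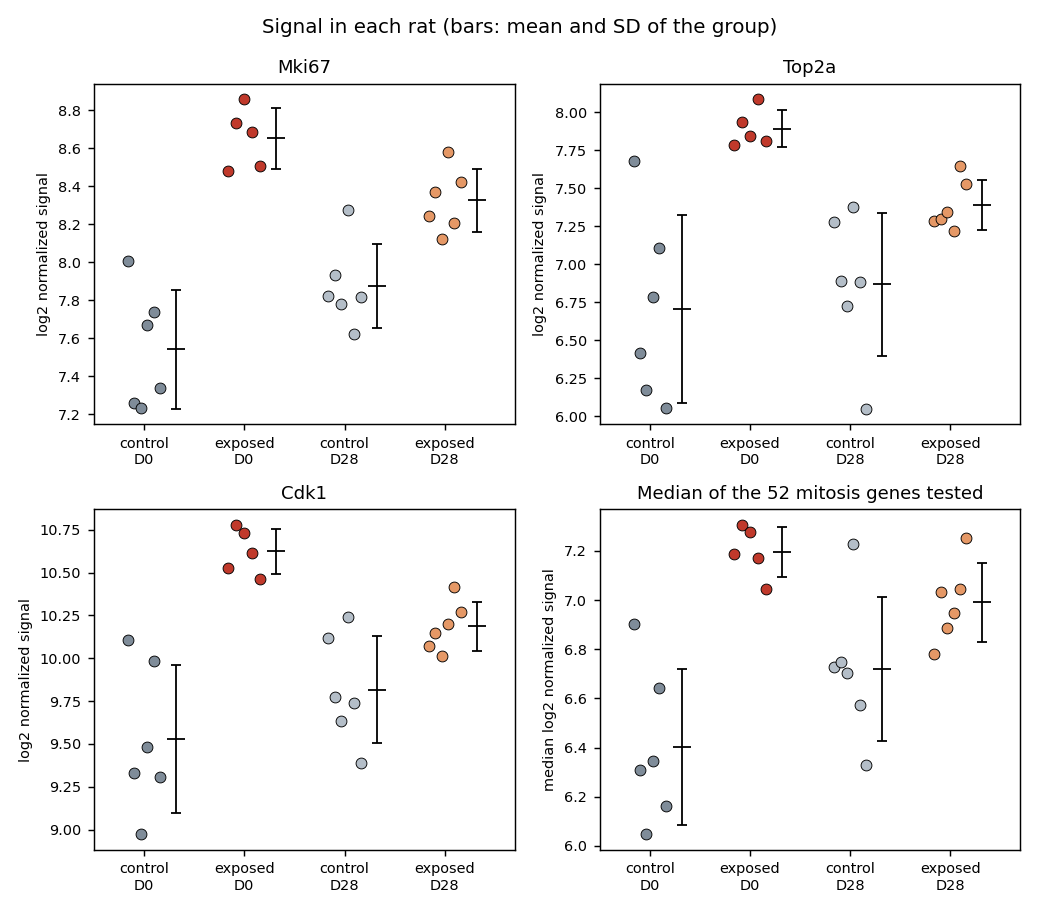
Log2 normalized signal of Mki67, Top2a and Cdk1 and the median over the 52 mitosis genes tested (vertical axes) in the 4 groups; 1 point is 1 rat, and the bars give the mean and SD of the group (n = 6, 5, 6 and 6). The exposed rats of D0 lie above all D0 controls in each panel, while the D28 groups overlap in each. For Mki67 and for the median, the D28 overlap comes from D28 control 4 alone.

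On D28 the same markers overlapped between the groups. Mki67 had a lowest of 8.13, a median of 8.31 and a highest of 8.58 in exposed rats, and 7.62, 7.82 and 8.28 in controls, a log2 FC of 0.45 (limma adjusted p = 0.111). Its overlap came from D28 control 4 alone, and the other controls had 7.62 to 7.93. Without that array the log2 FC was 0.53 (limma adjusted p = 0.0494), under the FC limit. The Top2a signal was 7.22, 7.32 and 7.65 at its lowest, median and highest in exposed rats and 6.05, 6.89 and 7.38 in controls, a log2 FC of 0.52 (limma adjusted p = 0.389). For Cdk1 the lowest, median and highest were 10.01, 10.17 and 10.41 in exposed rats and 9.39, 9.76 and 10.24 in controls, a log2 FC of 0.37 (limma adjusted p = 0.4). None of the 3 passed both thresholds on D28.

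Genes of mitosis are often described as sharing promoter letters that are read late in the cell cycle: the CHR element, TTTGAA or less often TTCGAA, and the CCAAT box. Promoters of 46 of the 54 genes were found by symbol in the RefSeq table for rat build GRCr8, as windows from 250 bases before to 50 bases after the start of the gene, and Ccna2, Foxm1, Pbk, Ube2c, Aurkb, Cdca2, Tpx2 and Racgap1 were not matched. TTTGAA, on either strand, was in the window of 31 of the 46 genes (67.4%) and of 19.4% of all 27457 genes in the table. CCAAT was in 33 of the 46 (71.7%) and in 39.6% of all, and TTCGAA in 2 of the 46 and in 1.89% of all. A CHR spelling together with CCAAT was in 25 of the 46 (54.3%) and in 8.57% of all. These are matches of short letter strings, and no binding was measured. The 30 tested genes with TTTGAA in the window had a median log2 FC on D0 of 1.04, and the 14 without it of 0.93, a difference that was not tested.

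The 150 bases before the start are shown for the 3 markers, for Plk1, Ect2 and Cdca3, which were among the 5 genes with the smallest p on D0, and for Kif4a, the member with the lowest change. They read 5′ to 3′ on the strand of the gene, and capitals mark TTTGAA or TTCGAA and CCAAT where they lie wholly inside the stretch, as TTCAAA and ATTGG where they are on the other strand. In Mki67 a TTTGAA and an ATTGG share letters. Plk1, Ect2 and Kif4a hold TTTGAA in the rest of the window, and Cdca3 holds none.
Mki67, chr1:199952594-199952743, minus strand: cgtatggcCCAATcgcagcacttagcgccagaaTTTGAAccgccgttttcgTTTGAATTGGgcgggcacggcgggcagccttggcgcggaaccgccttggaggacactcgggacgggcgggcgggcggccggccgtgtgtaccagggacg
Top2a, chr10:84473094-84473243, minus strand: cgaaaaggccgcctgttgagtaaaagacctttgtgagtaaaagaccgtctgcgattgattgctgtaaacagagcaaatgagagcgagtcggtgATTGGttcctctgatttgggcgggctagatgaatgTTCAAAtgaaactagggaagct
Cdk1, chr20:19265143-19265292, plus strand: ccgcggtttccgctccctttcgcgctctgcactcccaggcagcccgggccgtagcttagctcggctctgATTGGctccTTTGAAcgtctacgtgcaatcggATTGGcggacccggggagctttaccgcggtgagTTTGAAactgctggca
Plk1, chr1:186147508-186147657, plus strand: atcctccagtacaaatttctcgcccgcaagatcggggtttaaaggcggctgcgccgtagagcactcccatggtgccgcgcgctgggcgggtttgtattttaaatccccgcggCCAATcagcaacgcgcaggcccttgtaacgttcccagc
Ect2, chr2:111966627-111966776, minus strand: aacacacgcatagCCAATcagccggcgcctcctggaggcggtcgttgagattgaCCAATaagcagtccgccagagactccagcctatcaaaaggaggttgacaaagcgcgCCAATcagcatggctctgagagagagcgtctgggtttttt
Cdca3, chr4:159321053-159321202, plus strand: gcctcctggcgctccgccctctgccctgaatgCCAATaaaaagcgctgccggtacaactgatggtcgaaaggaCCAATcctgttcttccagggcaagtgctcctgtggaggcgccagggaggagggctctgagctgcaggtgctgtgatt
Kif4a, chrX:69761733-69761882, plus strand: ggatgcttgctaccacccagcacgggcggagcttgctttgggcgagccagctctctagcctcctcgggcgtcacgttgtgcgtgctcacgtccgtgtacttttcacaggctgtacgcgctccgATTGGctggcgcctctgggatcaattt

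The genes that start mitosis were over-expressed on D0 in 8 of 11 cases, with a median log2 FC of 1.02 on D0 and 0.45 on D28, where 0 passed. Plk1, the kinase that matures centrosomes and helps to activate Cdk1, was among the 5 members with the smallest p. Its signal in the exposed rats of D0 was 9.30, 9.62, 9.69, 9.08 and 9.06, and in controls the lowest, median and highest were 7.63, 8.21 and 8.58. The groups did not overlap, with a log2 FC of 1.21 (limma adjusted p = 0.00025). On D28 the lowest, median and highest were 8.50, 8.98 and 9.13 in exposed rats and 8.21, 8.41 and 8.76 in controls, and the overlapping groups gave 0.45 (limma adjusted p = 0.207). Ccna2, the cyclin of S and G2 phase, rose by a log2 FC of 1.31 on D0 and had 0.53 on D28. Ccnb1 and Ccnb2, the B-type cyclins that pair with Cdk1, rose by 1.19 and 1.02 on D0 and had 0.32 and 0.49 on D28. Cks2, a small subunit of the Cdk1 complex, rose by 1.19 and had 0.47 on D28. Cdkn3, a phosphatase that acts on cyclin-dependent kinases, rose by 0.81 and had 0.49 on D28. Foxm1, the transcription factor of G2 and mitotic genes, rose by 0.61 and had 0.17 on D28. Aurka, the kinase of spindle poles, passed the adjusted p on D0 (limma, 0.00885) but lay just under the FC limit with 0.56, and had 0.34 on D28. Melk and Pbk, kinases found at high level in dividing cells, had 0.97 and 0.93 on D0 and 0.58 and 0.44 on D28, and neither passed on either day.

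The spindle checkpoint, which delays anaphase, had 3 of its 4 genes over-expressed on D0. Bub1, a kinase at unattached kinetochores, rose by a log2 FC of 0.88 and had 0.43 on D28. Bub1b, part of the complex that holds back Cdc20, rose by 1.39 and had 0.21 on D28. Ttk, the kinase that recruits the others, rose by 1.07 and had 0.16 on D28. Mad2l1, the inhibitor that binds Cdc20, had 0.35 and 0.20 and passed on neither day.

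Genes of anaphase and sister separation were over-expressed on D0 in 3 of 4 cases. Ube2c, the enzyme that feeds ubiquitin to the anaphase-promoting complex, had signals of 7.86, 8.02, 8.15, 7.69 and 7.89 in exposed rats on D0. Its lowest, median and highest in controls were 6.29, 6.64 and 7.29, without overlap. The log2 FC was 1.24 (limma adjusted p = 0.000739). On D28 exposed rats had 7.15, 7.58 and 7.71 at their lowest, median and highest, within the 6.87 to 8.07 of the controls, whose median was 6.96, and the log2 FC was 0.32 (limma adjusted p = 0.58). The 8.07 was that of D28 control 4, and the other controls had at most 7.33. Without that array the log2 FC was 0.49 (limma adjusted p = 0.127). Pttg1, the securin that guards separase, rose by 0.87 on D0 and had 0.44 on D28. Espl1, separase itself, rose by 0.59, close to the FC limit, and had 0.14 on D28, and its 2 probes had 0.18 and 1.00 on D0. Cdc20, the activator of the anaphase-promoting complex, had 0.40 and 0.14 and passed on neither day.

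At the kinetochore, where microtubules grip the chromosome, 3 of 6 genes were over-expressed on D0. Ndc80, Nuf2 and Spc25, subunits of the same microtubule-binding complex, rose by log2 FC of 1.01, 0.95 and 1.20 and had 0.26, 0.35 and 0.47 on D28. Spc24, the fourth subunit of that complex, had 0.42 and 0.14 and did not pass. Cenpf, a large kinetochore protein, had 0.39 and 0.35 and did not pass. Cenpe, a kinesin that carries chromosomes to the spindle equator, was detected above background in 0 of 6 controls and 2 of 5 exposed animals on D0. Against controls raised to the level of detection, the mean of the exposed rats was 1.21-fold higher. This is not a firm bound, since most exposed rats were not detected either. The groups overlapped, and the gene did not pass (limma adjusted p = 0.132). On D28 it was well above background in 1 control and 0 exposed rats.

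None of the 3 genes of the chromosomal passenger complex, which corrects faulty attachments, passed the test on either day. Birc5 (survivin) had a log2 FC of 0.76 on D0 (limma adjusted p = 0.165) and 0.44 on D28. Aurkb, the kinase of the complex, had 0.26 on D0 (limma adjusted p = 0.692) and -0.06 on D28. Cdca8 (borealin) was detected above background in 4 of 6 controls and 4 of 5 exposed animals on D0 and had 0.20 on D0 and 0.11 on D28. Without adjustment, Birc5 alone had p below 0.05 on D0.

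Among genes of chromosome structure, 4 of the 5 tested were over-expressed on D0, Mki67 and Top2a included. Cdca2, which targets a phosphatase to chromatin as cells leave mitosis, rose by a log2 FC of 0.93 and had 0.40 on D28. It was well above background in 5 of 6 controls on D0. Ncapg, a subunit of condensin, was detected above background in all 5 exposed animals and in 0 of 6 controls on D0, and was at least 2.20-fold higher in exposed rats (limma adjusted p = 0.00955). On D28 it was measured in 2 of 6 controls and 4 of 6 exposed rats, with a log2 FC of 0.25. Ncapg2, the counterpart in the other condensin, had 0.31 and 0.17 and did not pass.

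Of 10 tested motors and microtubule-binding proteins of the spindle, 4 were over-expressed on D0. Kif11, the motor that pushes the poles apart, rose by a log2 FC of 1.07 and had 0.37 on D28. Kif18b, which shortens astral microtubules, rose by 1.17 and had 0.18. Nusap1, which bundles microtubules around chromosomes, rose by 1.21 and had 0.22, and the difference between both effects was -0.99 (limma adjusted p = 0.506). Ckap2, a microtubule stabiliser, rose by 1.13 and had 0.41. Tpx2, which activates Aurka on the spindle, had 1.13 on D0 just short of the threshold (limma adjusted p = 0.0505) and 0.17 on D28. It was well above background in 4 of 6 controls on D0. Dlgap5 passed the adjusted p on D0 (limma, 0.00526) with a log2 FC of 0.56, under the FC limit, and had 0.24 on D28. Kif15, a partner of Kif11, had 0.62 and 0.29, Kif2c, which takes apart microtubule ends, had 0.82 and 0.06, and Troap, a spindle assembly protein, had 0.57 and 0.15, and none of the 3 passed on either day. Kif2c was well above background in 4 of 6 controls on D0.

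Kif4a, a kinesin that sets the length of the central spindle and binds chromosomes, went the other way from the 51 other genes on D0. Its signals in exposed rats were 5.91, 5.62, 5.90, 6.17 and 5.50 on D0, against a lowest of 6.13, a median of 6.37 and a highest of 6.84 in controls, with 1 exposed rat inside the range of the controls. The log2 FC was -0.60 with a standard error of 0.21 (limma adjusted p = 0.155). On D28 exposed rats had 5.27, 5.87 and 6.36 at their lowest, median and highest and controls 6.26, 6.54 and 7.22, a log2 FC of -0.78 with a standard error of 0.20 (limma adjusted p = 0.0536). It passed the thresholds on neither day, but on D28 it was under-expressed without exposed rat 4 of D0 (limma adjusted p = 0.0481), exposed rat 5 of D28 (0.0362) or exposed rat 6 of D28 (0.0496), with 0.0362 to 0.143 over the 23 fits that left out 1 array. Kif4a was read by 1 probe, which lies on chromosome X of build rn4 from 88712079 to 88712138, and was well above background in every rat.

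Genes of the midzone and of cytokinesis, the pinching apart of the daughter cells, were over-expressed on D0 in 5 of 7 cases. Ect2, which switches on RhoA at the cell equator, had 8.42, 8.50, 8.72, 8.15 and 8.23 in the 5 exposed rats of D0, and the lowest, median and highest of the controls were 6.83, 7.08 and 7.46. The gap between the groups gave a log2 FC of 1.29 (limma adjusted p = 0.00025). On D28 the lowest, median and highest were 7.64, 8.11 and 8.44 in exposed rats and 7.22, 7.48 and 8.21 in controls, a log2 FC of 0.53 (limma adjusted p = 0.146). Racgap1, the partner that brings Ect2 to the midzone, had 7.86, 8.06, 8.03, 8.09 and 7.92 in the exposed rats of D0, above a lowest of 7.12, a median of 7.29 and a highest of 7.71 in controls. It rose by 0.65 on D0 without overlap (limma adjusted p = 0.00142), and by less than the FC limit in the deposited table, 0.52. On D28 it had 7.65, 7.80 and 8.06 in exposed rats and 7.27, 7.33 and 7.76 in controls, a log2 FC of 0.41 that passed neither the FC limit nor the adjusted p (limma, 0.0527). Anln, which links actin and the contractile ring, rose by 1.16 on D0 and had 0.31 on D28. The kinesins Kif20a and Kif20b, which act at the midzone, rose by 1.09 and 1.17 and had 0.29 and 0.26. Kif20b was well above background in 5 of 6 controls on D0. Kif23, the motor bound to Racgap1, and Prc1, the bundler of midzone microtubules, had 0.47 and 0.45 on D0 and 0.08 and 0.37 on D28, and passed on neither day although their D0 groups did not overlap.

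Cdca3, a trigger of mitotic entry through loss of the kinase Wee1, was the 1 mitosis gene over-expressed on both days. Its signals in exposed rats on D0 were 8.85, 9.10, 9.26, 8.83 and 8.79, and controls had a lowest of 7.04, a median of 7.49 and a highest of 8.11. The groups did not overlap, with a log2 FC of 1.41, a standard error of 0.18 and a limma adjusted p of 0.000153. On D28 exposed rats had 8.37, 8.74 and 8.85 as their lowest, median and highest and controls 7.60, 7.94 and 8.48, so that the groups overlapped, with a log2 FC of 0.70, a standard error of 0.17 and a limma adjusted p of 0.0474. Leaving out 1 array at a time ended this D28 call in 17 of the 23 cases, and 4 of 11 other choices did so, among them the replicate block (limma adjusted p = 0.103) and the fit to only the arrays of the day (0.125). Depdc1, of less settled role in dividing cells, rose by 1.44 on D0 and had 0.64 on D28.

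**Figure D3:**
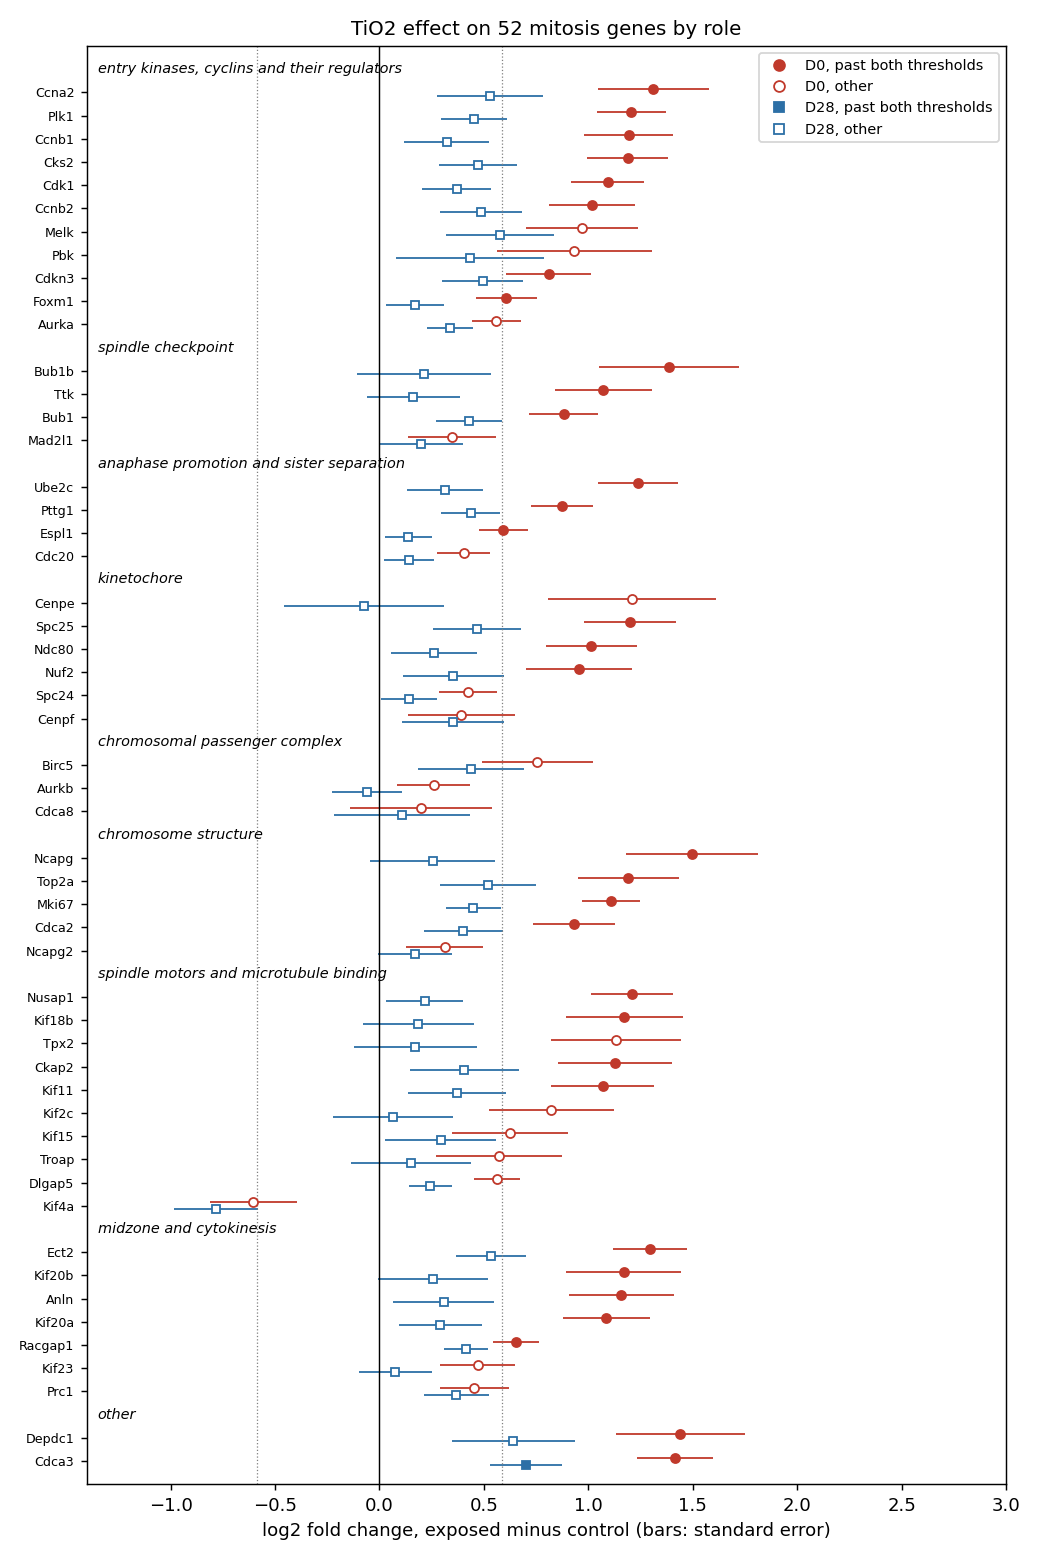
Log2 FC of exposed against control rats (horizontal axis, bars give the standard error) for the 52 mitosis genes (vertical axis) in blocks by role, on D0 (circles) and D28 (squares); filled symbols passed both thresholds and dotted lines mark the FC limit. On D0 32 circles are filled and 1 lies left of 0, Kif4a, and on D28 1 square is filled, Cdca3.

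Rats differed from each other over most of these genes at a time. Among the D0 controls, rat 1 was above the mean of its group for 49 of the 52 genes and rat 5 for 41, and the others for 8 to 17. Of all genes, 51.4% were above the group mean in rat 1, 49.5% in rat 5 and 44.8 to 54.4% in the others. The median over the 52 was 6.90 and 6.64 in these 2 rats, both on slide 3, and 6.05 to 6.35 in the other 4. Exposed rats of D0 were closer together, at 7.05 to 7.31. Among the D28 controls, rat 4, the array alone on its slide, had 7.23 and the others 6.33 to 6.75. In exposed rats of D28 the median was 6.78 to 7.25, with the highest in rat 6, which was above the mean of its group for 47 genes (57.1% of all genes).

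**Figure D4:**
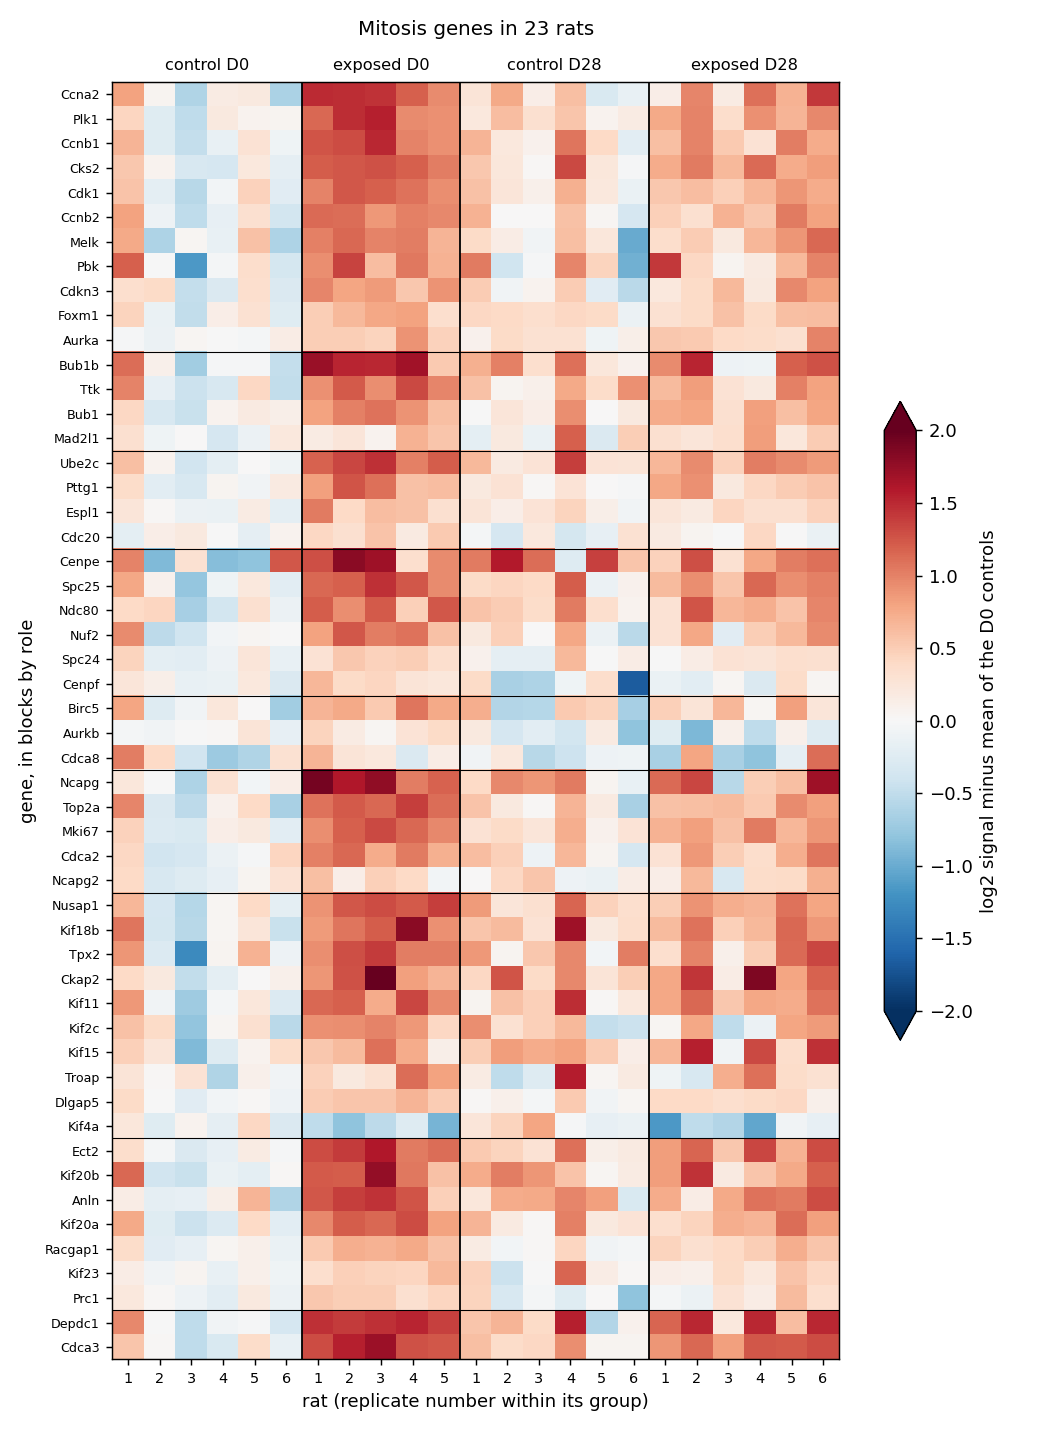
Log2 normalized signal of each mitosis gene (rows, in blocks by role) minus the mean of the D0 controls, in each of the 23 rats (columns, by group and replicate number). In the 5 exposed rats of D0 nearly all rows are red and Kif4a is blue, and D28 control 4 is redder than the other D28 controls.

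Within slides the D0 change had the same direction. The median difference between exposed and control rats over the 52 genes was 1.10 on slide 1, 1.18 on slide 4 and 1.22 on slide 5, and 0.58 on slide 3, which held the 2 controls with the highest values. From 49 to 51 of the 52 genes were higher in exposed rats within each slide, and from 47.1 to 54.2% of all genes. On D28 the median difference was 0.49 on slide 1, 0.25 on slide 3 and 0.79 on slide 5, with 43 to 46 of the 52 genes higher, and 45.5 to 55.5% of all genes. With the slide as a block in the fit, 35 genes were over-expressed on D0 and 6 on D28. The share of all genes over-expressed in that fit was not counted.

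**Figure D5:**
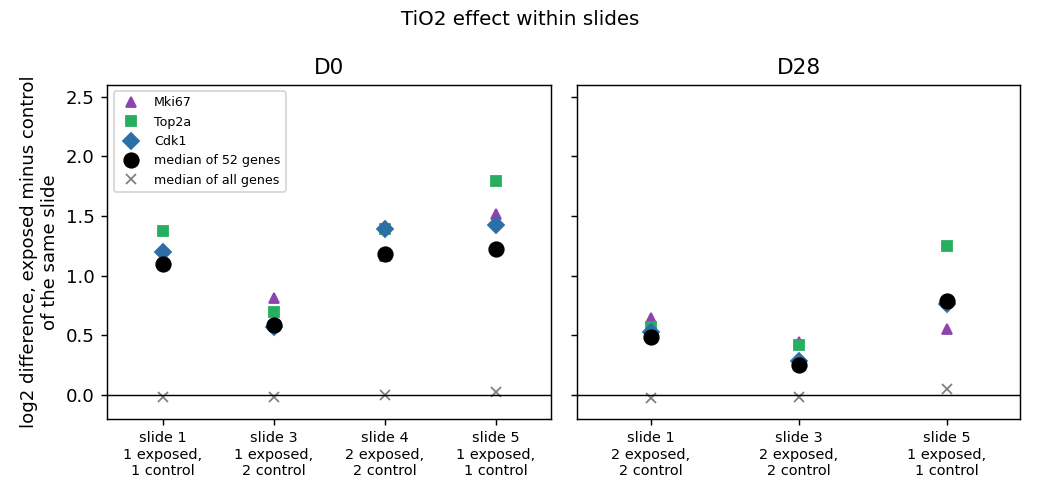
Difference of the mean log2 signal between exposed and control rats of the same slide (vertical axis) for Mki67, Top2a, Cdk1, the median over the 52 mitosis genes and the median over all genes, on D0 (left) and D28 (right); each slide is labelled with its number of rats. The median over the 52 lies between 0.58 and 1.22 on D0 and between 0.25 and 0.79 on D28, and that of all genes close to 0.

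On D28, Cdca3 was the 1 of 52 genes over-expressed (1.92%) and 0 were under-expressed, against 0.486% and 0.269% of all genes. With the adjusted p alone Cdca3 was again the 1 gene higher (0.782% of all genes). An unadjusted limma p below 0.05 was reached by 20 genes with a higher signal (4.82% of all genes) and by 1, Kif4a, with a lower one (6.18%). The log2 FC was above 0 for 49 of the 52 (48.9% of all genes), with a median of 0.32. The groups were without overlap for 0 of the 52, with exposed rats higher (0.677% of all genes) or lower (0.538%). In the 6 exposed rats, 4 to 25 of the 52 genes were above all D28 controls, as were 9.94 to 14.1% of all genes. The lowest count, 4 in rat 3, stood beside 13.5% of all genes, and the highest, 25 in rat 6, beside 13.4%. For Mki67, Cdca3, Cks2, Ect2, Racgap1, Bub1, Spc25 and Dlgap5, no control other than D28 control 4 reached the lowest exposed rat. The share of all genes for which this was so was not counted. Without D28 control 4 the median was 0.41, and Cdca3, Cks2 (log2 FC 0.66, limma adjusted p = 0.0269) and Ect2 (0.67, limma adjusted p = 0.0373) were over-expressed. Mki67 (0.53, limma adjusted p = 0.0494) and Racgap1 (0.48, limma adjusted p = 0.0185) then passed the adjusted p but not the FC limit. For Cdca3 the limma adjusted p was 0.0214 to 0.112 over the 23 fits that left out 1 array each. With the slide as a block, Bub1, Ccnb2, Cdca3, Cks2, Ect2 and Spc25 were over-expressed on D28 and Kif4a was under-expressed. For these other fits the share of all genes was not counted.

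Whether the TiO2 effect differed between the days was tested as the difference of both effects. It was past the thresholds for 0 of the 52 genes (limma), and for 0.0217% of all genes with a difference above 0 and 0.00868% with one below 0. The difference was below 0 for 52 of 52 genes, with a median of -0.63, and 25 of them (48.1%) had an unadjusted p below 0.05 in this direction, against 1.89% of all genes. For Kif4a, with a log2 FC of -0.60 on D0 and -0.78 on D28, a difference below 0 means a larger fall on D28. Among the genes named above it was -0.92 for Ube2c (limma adjusted p = 0.643), -0.76 for Ect2, -0.75 for Plk1, -0.72 for Cdk1, -0.71 for Cdca3, -0.67 for Top2a and -0.66 for Mki67 (limma adjusted p = 0.645). Without D28 control 4 the median was -0.48, and the difference was above 0 for 2 genes.

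Between the days, the medians of control and of exposed rats had opposite signs. From D0 to D28 in control rats, 0 of the 52 genes passed the thresholds (limma), where 0.391% of all genes were higher and 0.221% lower. An unadjusted p below 0.05 was reached by 15 with a higher signal on D28 (6.53% of all genes) and by 0 with a lower one (6.74%, or 0.304% after adjustment), and the median was 0.25. Without D28 control 4, 3 genes did so, and the median was 0.20. In exposed rats 0 passed the thresholds, where 0.213% of all genes were higher and 0.139% lower, 13 had an unadjusted p below 0.05 with a lower signal on D28 (3.89% of all genes) and 0 with a higher one (3.83%), and the median was -0.32. Cdk1, Top2a and Dlgap5 were the 3 genes whose D28 exposed rats were all below the D0 exposed rats (0.534% of all genes). These comparisons use the same arrays as the TiO2 effects and are not independent of them.

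Other genes of mitosis outside the 54 were taken from a second list of 68 names, 64 of them tested. On D0, 13 were over-expressed (1.09% of all genes), 0 were under-expressed (0.695%), 56 had a log2 FC above 0 (49.9%) and the median was 0.52. The largest were Cenpw (1.22), a histone-fold protein of the centromere, Cenpu (1.18), Knstrn (1.13), which is found at kinetochores, Kif22 (1.12), a chromosome-binding kinesin, and Aspm (1.06), a spindle pole protein. Shcbp1 (0.99), Cenpa (0.94), the centromeric histone, and Knl1 (0.83), the platform for the checkpoint, also rose. Ncapd2 (0.67), Arhgap11a (0.65), Hjurp (0.62), Spag5 (0.61) and Pkmyt1 (0.61) rose by less. On D28, 0 of the 64 passed (limma) and 10 had an unadjusted p below 0.05 with a higher signal (4.82% of all genes), with a median of 0.22.

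Lists for earlier steps of the cell cycle were read in the same way, against the same shares of all genes. Of 48 genes of DNA replication, 1 was over-expressed on D0, Rrm2, a subunit of the enzyme that makes deoxyribonucleotides, with a log2 FC of 1.09 (limma adjusted p = 0.00142). On D0 the log2 FC was above 0 for 44 of the 48, with a median of 0.28. An unadjusted limma p below 0.05 was reached on D0 by 20 with a higher signal (5.6% of all genes) and by 1 with a lower one (6.34%). On D28 the median was 0.22, 0 passed and 14 had an unadjusted p below 0.05 with a higher signal (4.82% of all genes). Of 27 regulators of the step from G1 to S phase, 2 were over-expressed on D0, the cyclin Ccne1 by 0.90 and the repressor E2f7 by 0.77, and the median was 0.09. On D0 8 of the 27 had an unadjusted limma p below 0.05 with a higher signal and 0 with a lower one. On D28 1 was under-expressed, Cdkn2b, an inhibitor of the G1 kinases, by -0.68 (limma adjusted p = 0.00483). Among 16 subunits and partners of the DREAM and MMB complexes, which silence and then activate late cell cycle genes, Foxm1 alone was over-expressed on D0, with a median of 0.05 for the 16. Whether these lists differed from the mitosis genes was not tested.

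Markers of cell types that can divide or enter the lung were read beside these genes. Over all genes tested, 1.09% were over-expressed on D0 and 0.486% on D28. Of 12 macrophage genes, Itgam (0.99) and Siglec1 (0.89) were over-expressed on D0, and the mean log2 signal of the 12 was 9.30 to 9.57 in exposed rats and 8.91 to 9.15 in controls, without overlap. Of the 12, 10 had a log2 FC above 0 on D0 (49.9% of all genes), with a median of 0.29. Marco was well above background on 2 of 23 arrays. On D28 Itgam was over-expressed, by 0.93, and the mean of the 12 was 9.09 to 9.37 in exposed rats and 8.80 to 9.27 in controls. The log2 FC was then above 0 for 9 of the 12 (48.9% of all genes), with a median of 0.11. An unadjusted limma p below 0.05 was reached on D28 by 4 with a higher signal (4.82% of all genes) and by 1 with a lower one (6.18%). Of 9 type II pneumocyte genes, 0 passed both thresholds on D0 (limma; 5 had an unadjusted p below 0.05), while Sftpd passed the adjusted p alone (limma, 0.0469) with a log2 FC of 0.37. Their mean was 14.08 to 14.35 in exposed rats and 13.88 to 14.02 in controls. The 10 neutrophil genes tested had means of 7.33 to 8.20 in exposed rats and 7.47 to 8.33 in controls on D0. Of these, 4 had a log2 FC above 0 on D0, and the median was -0.04. Lcn2 alone was over-expressed, by 1.65, while 2 had an unadjusted limma p below 0.05 with a lower signal. Elane was well above background on 0 of 23 arrays. For 12 T cell and 8 B cell genes, 0 passed on D0 (limma; 0 had an unadjusted p below 0.05), and their means overlapped on D0, at 7.94 to 8.62 against 7.96 to 8.40 and at 6.41 to 6.63 against 6.48 to 6.89. Means of the 9 endothelial genes were lower in exposed rats on D0, at 11.69 to 11.87 against 11.96 to 12.13. The part of any of these cell types in the change of the mitosis genes was not tested.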

How the data were processed

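The authors deposited the output of Agilent Feature Extraction for each array and 1 table of all arrays. The grid placement field of the file headers gave version 11.0.1.1 for 22 arrays and 12.0.1.1 for the remaining array, while the paper names another version. The deposited values are intensities. The processed signal is corrected for background and spatial trends within the array and is not normalized between arrays, while the table is quantile normalized on the linear scale, without background correction. Control spots were left out, outlier spots were treated as missing values (0.794%), and the processed signal was put on the log2 scale. A probe stayed in when at least 5 arrays read it above the 95th percentile of their 308 negative controls (40418 of 45598 probes). Arrays were quantile normalized, and spots of a probe and then probes of a gene were averaged. Of 80 probes of the mitosis genes, 78 were kept, and none of their spots was saturated. Of the 52 genes tested, 44 were well above background on all 23 arrays. The 8 that were not were Cenpe, Ncapg, Cdca8, Tpx2, Kif2c, Cdca2, Kif20b and Pbk. Symbols were those in the file of D28 control 4, whose annotation is newer. In 17 genes with more than 1 kept probe, the signs of the probes disagreed in 0 on D0 and in 5 on D28 (Anln, Bub1b, Espl1, Ncapg and Ncapg2).

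A single limma model (version 3.58.1, R 4.3.3) with a mean per group and 19 residual degrees of freedom, and no batch term since the batches of the authors' correction are not given in the sources used here, gave 5 contrasts, adjusted over all 23030 genes. The model step was tested on simulated data. Where no rat of a group gave a signal well above background, the FC was taken against the level of detection. On D0 it is a bound for Ncapg but not a firm one for Cenpe. With both genes at these values the D0 median of the 52 was 0.96. Gene lists were drawn from general knowledge. The genes and lists were chosen with earlier results of these data known.

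Every mitosis gene is named, with its change or bound where it was tested and measured. Values per rat are given for Mki67, Top2a and Cdk1, the 5 genes with the smallest p on each day and the lowest log2 FC on each day. From other lists, genes past both thresholds, or the smallest p, are named. Alternatives were 75th percentile scaling, normexp correction, the median signal, the deposited table, no filter, a filter on spots well above background, the brightest probe, only the arrays of a day, the slide or the replicate number as a block, array weights, no FC limit, and leaving out each array. Promoters came from RefSeq (GRCr8). Protein sequences and the sixth exposed array of D0 were not analysed here. One marker gene's result is not reported here. Exposed D28 arrays carry a source label of day 0, and their titles, which give day 28, were followed. No date was used, and a slide is the set of arrays with 1 slide barcode.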

Additional observations from a re-analysis of the deposited data

How the results depend on the processing

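Over 12 settings that used every array of the comparison, the number of mitosis genes over-expressed on D0 was 18 to 35 and 0 to 1 were under-expressed (1, Kif4a, with array quality weights), and over 23 fits without 1 array it was 24 (without D0 control 3) to 35, with the median log2 FC from 0.88 to 1.16. Of the 32 genes, 23 were past both thresholds in every fit without 1 array and 17 in every other setting; Nuf2 was in 10 of 23 fits, Bub1b and Cdkn3 in 16, Foxm1 in 17, Ckap2, Espl1 and Kif18b in 19, Kif20b in 20 and Kif11 in 22. With normexp correction, 18 genes were over-expressed on D0 and 0 on D28, and the median was 0.45 on D0 and -0.27 for the difference of the effects. With the median signal these medians were 0.57 and -0.37, and with the deposited values 0.56 and -0.37. The cause of the smaller values was not tested. For none of these alternatives was the share of all genes past the thresholds counted, so their counts have no such share beside them. On D28, 0 genes were over-expressed with only the arrays of the day and with array quality weights, 6 with the slide as a block, and 0 to 3 without 1 array. On D28, 1 gene, Kif4a, was under-expressed with 75th percentile scaling, with the filter on spots well above background, with the slide as a block and with array quality weights, and 0 to 1 without 1 array. Without 1 array, the D28 median was 0.25 to 0.41, that of the difference -0.77 to -0.48, that of controls over time 0.20 to 0.39 and that of exposed rats over time -0.38 to -0.28, and 0 genes passed for the last 3 comparisons in any fit. For same-numbered control and exposed rats, the deviations of all genes from their group means correlated at -0.22 to -0.12 on D0. On D28 they correlated at -0.17 to 0.46. Differently numbered rats were not compared, so whether the replicate numbers pair the rats cannot be told. With the replicate block, 29 genes were over-expressed on D0 and 0 on D28, where Cdca3 had an adjusted p of 0.103. Racgap1 fell under the FC limit on D0 with normexp correction (0.47), the median signal (0.53) and in the deposited values (0.52). Mki67, Top2a, Cdk1, Plk1, Ect2, Ube2c and Cdca3 kept their D0 calls in every fit run, and the TiO2 effects of these genes, Racgap1 and Kif4a and the medians over the 52 kept their sign. The sign of the other genes was not followed in every setting; without D28 control 4 the difference was above 0 for 2 genes and controls over time for 42 (46 with all arrays). Arrays of 1 tissue piece per rat, with 5 or 6 rats a group, limit what can be seen on D28.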

Other observations

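Genes known to follow the time of day or stress hormones also differed between the groups. Of 10 clock genes that rise with Nr1d1, the mean log2 signal was 7.87 to 8.68 in exposed rats and 8.87 to 9.15 in controls on D0, and 7.93 to 9.15 against 7.32 to 7.60 on D28, so that both days were without overlap and the order was opposite. On D0 Nr1d1 (-2.50) and Per1 (-1.41) were under-expressed and Bhlhe41 (0.68) over-expressed, and on D28 Dbp (2.75), Nr1d1 (2.00), Nr1d2 (1.11) and Per2 (1.10) were over-expressed. Of the 5 that rise with Arntl, Cry1 was over-expressed on D0 (0.81), and Arntl (-1.25), Npas2 (-1.02) and Cry1 (-0.87) were under-expressed on D28. Among 8 glucocorticoid-induced genes, Mt2A rose on D0 (1.00), Klf9 (-0.86) and Zbtb16 (-1.99) fell on D0, and Fkbp5 (-1.02) and Zbtb16 (-2.23) fell on D28. Their part in the values of the mitosis genes was not tested.

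Among the remaining markers, Ahsp, a chaperone of haemoglobin made in red cell precursors, was under-expressed on D0 (-0.90), the 1 erythroid gene of 7 tested to pass. Of the 9 endothelial genes, Tek passed the adjusted p on D28 (limma, 0.0246) with a log2 FC of -0.46, under the FC limit. Of the 7 ciliated and secretory airway genes 0 passed (limma), and 1 had an unadjusted p below 0.05 with a higher and 1 with a lower signal on D0. The smallest p there was that of Scgb3a2 on D0 (log2 FC 0.49) and of Ccdc39 on D28 (log2 FC -0.48). The smallest p of the T cell genes on D0 was that of Cd4 (log2 FC 0.13), and that of the B cell genes that of Ms4a1 on D0 (log2 FC -0.35) and of Pax5 on D28 (log2 FC -0.30).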
